A study of Saccharomyces cerevisiae with 12 samples.

Results

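Saccharomyces cerevisiae that made a control intrabody was compared with wild type yeast of the same strain, over 8 of the 12 arrays of the series and all genes with a measurable probe. The 4 arrays titled for ScFv-112A formed one side and the 4 arrays titled as wild type the other. The 4 arrays of a second intrabody, ScFv-58F, are set beside them where stated. The 112A yeast stably expressed ScFv-112A, a single-chain antibody fragment raised against acetylated HIV-1 integrase, a viral protein that yeast does not encode, and the wild type yeast carried no intrabody. The 58F yeast stably expressed ScFv-58F, an antibody fragment against acetylated histone H3. All groups were the laboratory strain L40, an interaction-trap reporter strain of mating type a with mutations in LEU2 and TRP1 and with HIS3 and lacZ reporters. The labels' protocols state that plates and pre-cultures lacked leucine for both intrabody strains and were rich YPD for wild type. All groups then grew overnight in YPD at 30 °C before harvest. The labels name neither the promoter nor the vector of the intrabody. Whether replicates were separate cultures is not stated, so p-values measure only the spread between these arrays, which may be technical.

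Intrabodies are antibody fragments that a living cell makes and keeps, so that they can bind a target in place. A strain that carries one differs from its parent by the foreign protein, by the selectable marker that came with it and by the medium used to select for it. In yeast, leucine is made by a pathway whose genes are switched by the factor Leu3, which reads the level of a pathway intermediate, and amino acid synthesis in general is under the factor Gcn4. Genes for the use of poor nitrogen sources, for respiration, for iron uptake and for thiamine synthesis are each under factors of their own and respond to the growth medium and the stage of the culture.

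RNA was labelled with the dye Cy3 from polyadenylated transcripts and hybridised to single-colour Agilent arrays. The relative signal of a gene is given below as a percent of the 75th percentile of all gene spots on the same array, so 100% is a bright probe, and levels are compared only between arrays for the same probe. Changes are log2 differences, 112A minus wild type, with a standard error (SE) from limma over 4 arrays per group, and a gene was called when its Benjamini-Hochberg adjusted p over all 5827 tested genes was under 0.05. Each group lay on 1 slide read in 1 scan, so slide, pre-culture medium and strain cannot be told apart, and this holds for every difference below. Spots well above background made up 87.0 to 93.4% of gene spots in 112A, against 89.7 to 93.8% in wild type. Wild type replicate 1 stood apart: its 75th percentile was 9362 intensity units before scaling, while those of the other 3 wild type arrays were 5592 to 6047 and those of the 112A arrays 4984 to 5254. Without it the comparison called 1420 genes higher and 1434 lower in 112A, close to the counts with all arrays.

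Of the 5827 genes, 2815 (48.3%) were called, 1331 (22.8%) higher and 1484 (25.5%) lower in 112A. Every count of called list members below is to be read beside these 2 shares. Most of the changes were small. Called changes had a median size of 0.32 on the log2 scale, and 2461 of the calls (87.4%) were under 1.5-fold. Fitted differences of at least 2-fold were called for 25 genes that were higher (0.429% of tested genes) and 16 that were lower (0.275%), and 8 genes had a fitted difference of at least 4-fold. Of these 8, LEU2, PDC5 and LEU1 were above background on all arrays of both groups, YOL085C and YOR050C.1 are given below as bounds, and COS12, YGL262W and SCEI were above background on too few arrays for a difference of that size to be measured. Of the 25, 13 had a probe above background on fewer than 4 arrays of one group, as had 1 of the 16. The 4 arrays of 112A did not overlap the 4 of wild type for 2316 genes (39.7%), with 1036 (17.8%) above and 1280 (22.0%) below.

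**Figure D1:**
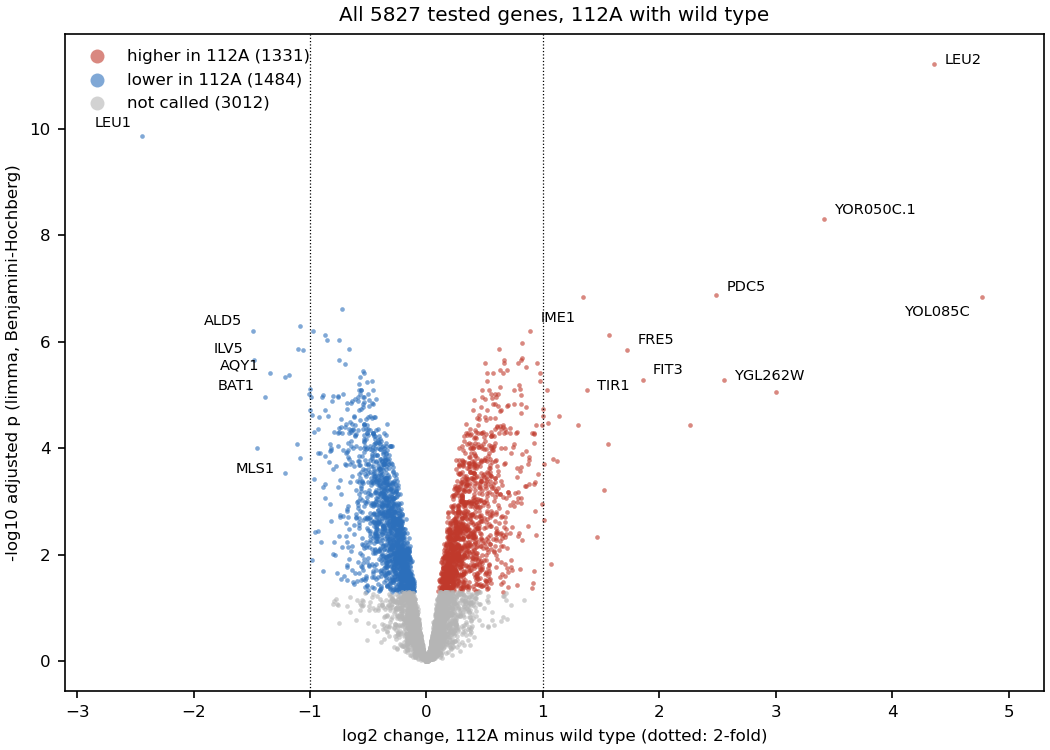
Each point is a tested gene, with the log2 change of 112A minus wild type on the x axis and -log10 of the limma adjusted p on the y axis; red genes were called higher in 112A, blue genes lower and grey genes were not called. The 1331 and 1484 called genes lie mostly inside the dotted 2-fold lines, and among genes above background on all 8 arrays LEU2 (4.36) lies farthest to the right and LEU1 (-2.44) farthest to the left. YOL085C, YOR050C.1 and YGL262W, at right, were above background on no wild type array, so their fitted positions are not measured sizes and their heights do not test a bound.

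LEU2, which encodes the third enzyme of leucine synthesis and serves as a selectable marker in yeast, rose more than any other gene above background in both groups. Its relative signal was 5905, 6374, 4992 and 6359% on the 112A arrays, against 307, 285, 276 and 280.5% on the wild type arrays. The 112A arrays all lay far above the wild type arrays, with a log2 change of 4.36 ± 0.08 (SE), 20.5-fold, with an adjusted p of 5.99e-12. The wild type level was well above background on all 4 arrays, so the probe also reads RNA in the strain that carries no intrabody. The other marker genes of strains of this kind changed little. HIS3, an enzyme of histidine synthesis, was at 1184 to 1428% in 112A, against 1431 to 1859% in wild type and fell by 0.38 on the log2 scale (adjusted p = 0.00336), LYS2, an enzyme of lysine synthesis, rose by 0.31 (adjusted p = 0.00483), and GAL4, the activator of the galactose genes, rose by 0.27 (adjusted p = 0.00338). URA3 (-0.11, adjusted p = 0.11), ADE2 (-0.11, adjusted p = 0.247) and MET17 (0.04, adjusted p = 0.643), of uracil, adenine and methionine synthesis, were not called. The probe of TRP1, mutated in L40, was not well above background on any of the 8 arrays. No array probe for the antibody fragment was used here.

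Genes of the a mating type were measured in both groups. Of the genes that only a cells express, 7 were measured, and their summed relative signal was 371 to 496% on arrays of 112A, against 255 to 334% on those of wild type. MF(ALPHA)1, the main pheromone gene of the opposite mating type, was not well above background on any of the 8 arrays, and MF(ALPHA)2 was above it on 1 wild type array and none of 112A, while STE3 and SAG1 of the same list were above background on all 8. Among the 7 a-specific genes 5 rose and none fell, with a median change of 0.39, where the median over all tested genes was -0.01. MFA1, an a-factor pheromone gene, was at 296, 313, 256 and 200.0% on the 112A arrays, against 139, 140.0, 168 and 188% on the wild type arrays. The groups did not overlap, and the change was 0.74 ± 0.16 (SE), 1.67-fold, with an adjusted p of 0.003. The second pheromone gene MFA2 rose by 0.64 (adjusted p = 0.00691), ASG7, a regulator of signalling after mating, by 0.50 (adjusted p = 0.0062), AGA2, the binding subunit of a-agglutinin, by 0.39 (adjusted p = 0.00248), and STE6, the a-factor exporter, by 0.27 (adjusted p = 0.0359). The call of STE6 was lost in 8 of the 18 alternative settings, among them the one without wild type replicate 1, where the change was 0.20 (adjusted p = 0.0925). STE2, the receptor for alpha factor, at -0.07 (adjusted p = 0.298), and BAR1, the protease that degrades that factor, at -0.08 (adjusted p = 0.47), were not called. STE3, the a-factor receptor of alpha cells, rose by 0.64 (adjusted p = 1.91e-05), while the alpha-agglutinin gene SAG1 stood at 0.11 (adjusted p = 0.051). The alpha-specific list summed to 48.0 to 53.3% in 112A, against 41.4 to 45.8% in wild type.

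The genes of leucine and branched-chain amino acid synthesis formed the sharpest group after LEU2 itself. Of 13 tested members 9 fell and 3 rose in 112A, LEU2 among those that rose, and the median change was -0.76. LEU1, the enzyme step before LEU2, was at 43.99, 40.7, 40.3 and 42.6% on the 112A arrays, against 252, 226, 219.9 and 213% on the wild type arrays. All 4 arrays of 112A lay below all 4 of wild type, with a log2 change of -2.44 ± 0.06 (SE), 5.42-fold, with an adjusted p of 1.36e-10. ILV5, the acetohydroxyacid reductoisomerase of the shared part of the pathway, was at 24.6, 23.5, 25.3 and 21.5% on the 112A arrays, against 84.6, 62.3, 65.3 and 55.4% on the wild type arrays. ILV5 changed by -1.48 ± 0.11 (SE), 2.79-fold, with an adjusted p of 2.18e-06. BAT1, the mitochondrial branched-chain aminotransferase, was at 19.1 to 27.01% in 112A, against 56.1 to 73.99% in wild type and changed by -1.38 ± 0.13 (SE), 2.61-fold, with an adjusted p of 1.08e-05. OAC1, a mitochondrial carrier that also exports the leucine precursor isopropylmalate, fell by 1.11 (adjusted p = 1.38e-06). The remaining falls were smaller: LEU4 and LEU9, the isopropylmalate synthases, at -0.76 and -0.76, ILV2 and ILV3 at -0.80 and -0.82, and the cytosolic aminotransferase BAT2 at -0.53, with adjusted p from 1.06e-05 for ILV2 to 0.000311 for BAT2. The regulator LEU3 itself rose by 0.33 (adjusted p = 0.00334) and ILV6, the regulatory subunit of acetolactate synthase, by 0.21 (adjusted p = 0.0171). ILV1, threonine deaminase, stood at -0.21 (adjusted p = 0.0682) and was not called, but it was called lower in 7 of the 18 alternative settings. The call of ILV6 was lost without wild type replicate 3 (adjusted p = 0.0507).

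**Figure D2:**
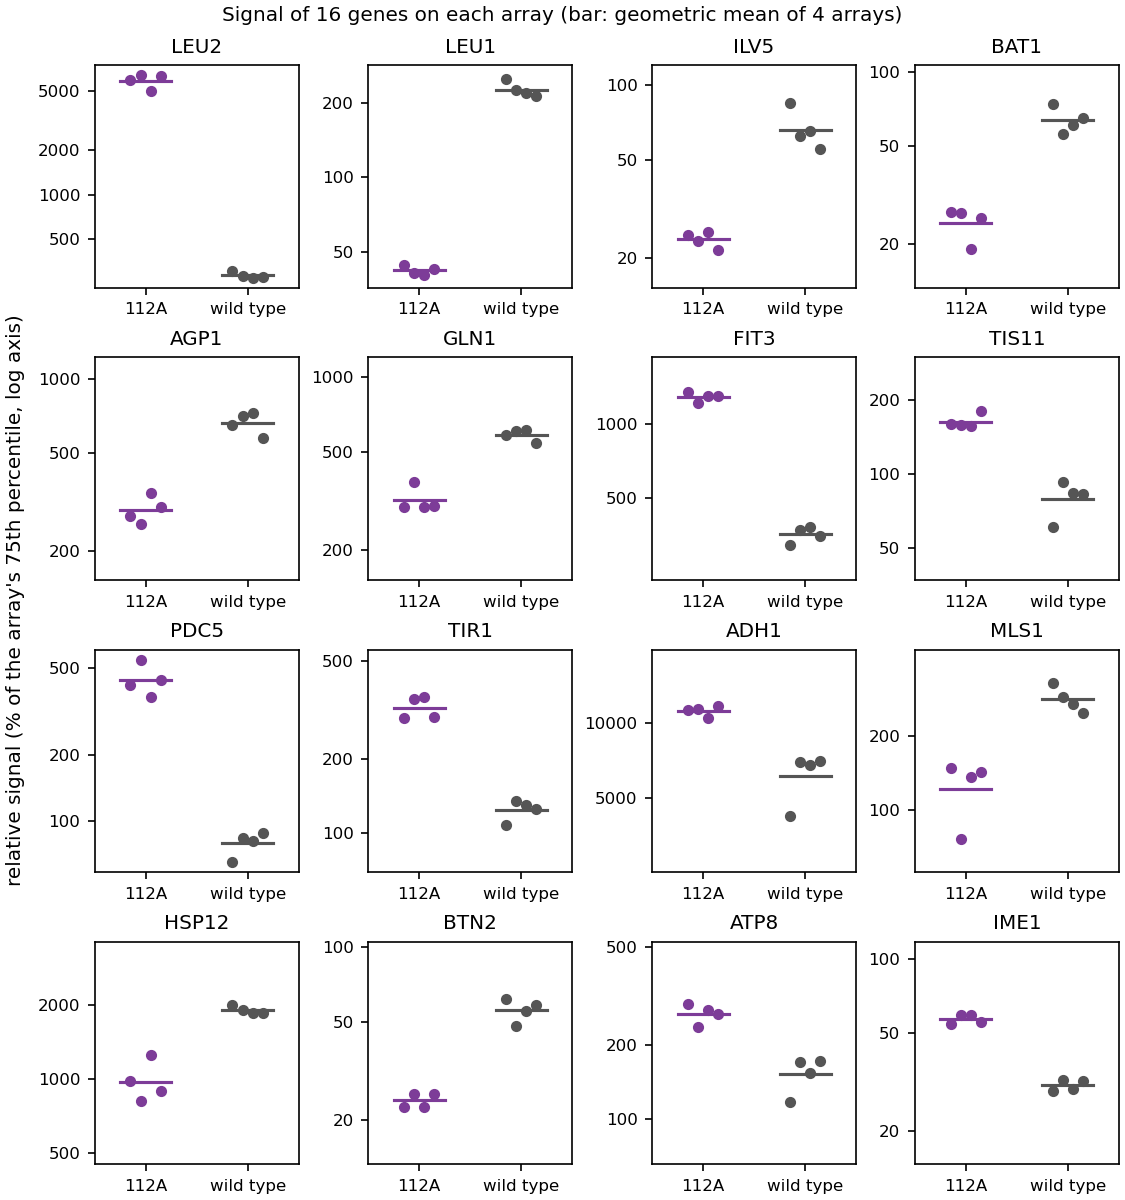
Relative signal of 16 genes on each array, in percent of the array's 75th percentile on a log axis, with 112A at left and wild type at right; points are arrays and bars the geometric mean of 4. LEU2 lies at 4992 to 6374% in 112A, against 276 to 307% in wild type, while LEU1 lies at 40.3 to 43.99% in 112A, against 213 to 252% in wild type.

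Amino acid uptake, nitrogen use and amino acid synthesis held more genes called lower than higher in 112A. Of 26 amino acid permease genes 4 were called higher and 14 lower in 112A, of 34 nitrogen genes 2 were called higher and 23 lower in 112A, and of 49 Gcn4-linked synthesis genes 5 were called higher and 23 lower in 112A, against 22.8% and 25.5% of all genes. The median changes were -0.18, -0.41 and -0.17 for these lists in that order. Permease rises numbered 2 under cyclic loess scaling, with the filter on all 12 arrays or in the authors' deposited values. Among the 4 permease rises, 1 was at least 2-fold, with a fitted change of 1.07. It did not meet the conditions for the 15 largest rises: arrays that do not overlap and a probe above background on all 4 arrays of a group. AGP1, a broad-range permease for amino acids, was at 277, 257, 343 and 301% on the 112A arrays, against 651, 709, 727 and 576% on the wild type arrays, with no overlap and a change of -1.18 ± 0.09 (SE), 2.27-fold, with an adjusted p of 4.28e-06. BAP2, a permease for branched-chain amino acids, was at 250.0, 231, 253 and 271% on the 112A arrays, against 578, 505, 532 and 512% on the wild type arrays. BAP2 changed by -1.08 ± 0.06 (SE), 2.12-fold, with an adjusted p of 5.01e-07. Its neighbour on chromosome II, TAT1, which carries tyrosine, tryptophan and branched-chain amino acids, changed by -0.92 (adjusted p = 2.61e-05), and all 4 arrays of each group were apart.

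Within the nitrogen list, GLN1, glutamine synthetase, was at 298, 376, 299 and 302% on the 112A arrays, against 583, 609, 610.0 and 543% on the wild type arrays. The change was -0.89 ± 0.08 (SE), 1.85-fold, with an adjusted p of 1e-05, and one 112A array, replicate 2, lay above the other 3 of its group but below every wild type array. GDH1, the main glutamate dehydrogenase of ammonium assimilation, changed by -0.82 (adjusted p = 0.000109), GZF3, a GATA-type regulator of nitrogen genes, by -0.75 (adjusted p = 9.14e-07), and GAP1, the general amino acid permease, by -0.74 (adjusted p = 4.04e-05). The 2 members that rose were CAN1, the arginine permease, at 0.57 (adjusted p = 0.000474), and GLT1, glutamate synthase, at 0.21 (adjusted p = 0.028), and the call of GLT1 was lost in 7 of the 18 alternatives. In the Gcn4 list the largest falls were HOM3, the first enzyme of threonine and methionine synthesis, at -0.98 (adjusted p = 2.44e-05), LYS20, homocitrate synthase of lysine synthesis, at -0.97 (adjusted p = 6.2e-07), the asparagine synthetase ASN1 at -0.86 (adjusted p = 9.14e-07) and the arginine synthesis gene ARG1 at -0.65 (adjusted p = 1.45e-05). ARO5, outside these lists and among the 15 largest falls, was at 56.9 to 70.6% in 112A, against 127 to 142% in wild type and fell by 1.06 (adjusted p = 1.44e-06). Sulfur amino acid synthesis was mixed: of 29 members 3 were called higher and 11 lower in 112A. The count of falls was 7 without 112A replicate 4 or without wild type replicate 1. Sulfur rises ran from 1 to 5 over the settings. MET6, methionine synthase, fell by 0.63 (adjusted p = 9.82e-05), SUL1, a sulfate permease, by 0.64 (adjusted p = 0.0197, lost without 112A replicate 4 or wild type replicate 1), and CYS3, which makes cysteine from cystathionine, rose by 0.66 (adjusted p = 4.08e-05).

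Iron uptake genes were called higher more often than lower. Of 30 members 14 (46.7%) rose and 3 (10%) fell in 112A, against 22.8% and 25.5% of all genes, with a median of 0.15. FIT3, a mannoprotein of the cell wall that helps retain iron chelators, was at 1340.3, 1215, 1293 and 1294% on the 112A arrays, against 322, 370.5, 380.5 and 350.2% on the wild type arrays, all above wild type. The log2 change was 1.86 ± 0.15 (SE), 3.62-fold, with an adjusted p of 5.29e-06. FRE5, its neighbour on chromosome XV and a member of the ferric reductase family, was at 16.2, 14.3, 17.9 and 17.6% on the 112A arrays, against 4.71, 5.21, 5.57 and 4.50% on the wild type arrays. FRE5 changed by 1.72 ± 0.12 (SE), 3.29-fold, with an adjusted p of 1.44e-06. These genes lie next to each other, and FIT2, on the other side of FIT3, was also called higher at 0.78 (adjusted p = 0.000882). TIS11, which destabilises mRNAs of iron-using proteins when iron is low, was at 159, 158, 156 and 180.5% on the 112A arrays, against 61.01, 92.5, 83.8 and 82.9% on the wild type arrays. TIS11 changed by 1.04 ± 0.11 (SE), 2.06-fold, with an adjusted p of 3.42e-05. ARN1, a transporter of iron-siderophore complexes, rose by 0.81 (adjusted p = 2.21e-05). The 3 that fell were ISU2, a scaffold for iron-sulfur clusters, at -0.52 (adjusted p = 0.00106), the vacuolar zinc and cobalt transporter COT1 at -0.27 (adjusted p = 0.00274), and FIT1 at -0.22 (adjusted p = 0.0432), whose call was lost in 12 of the 18 alternatives. Of 14 haem and HAP-factor genes 1 was called higher and 5 lower, led by HAP3, a subunit of the activator of respiratory genes, at -0.77 (adjusted p = 0.000219) and HEM1, the first enzyme of haem synthesis, at -0.72 (adjusted p = 9.53e-06).

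PDC5, a minor pyruvate decarboxylase isozyme, was the next largest rise among genes above background in both groups. Its relative signal was 422, 549, 368 and 443% on the 112A arrays, against 64.7, 82.97, 80.8 and 88.1% on the wild type arrays, and the groups lay far apart. The log2 change was 2.49 ± 0.12 (SE), 5.61-fold, with an adjusted p of 1.33e-07. Of the 18 thiamine genes, 8 (44.4%) rose and 3 (16.7%) fell, against 22.8% and 25.5% of all genes. THI11, THI12 and THI13, near-identical copies whose probes may share signal, rose by 0.71, 0.63 and 0.58, with adjusted p of 4.23e-05, 3.87e-05 and 5.87e-05. THI11 was at 22.9 to 28.7% in 112A, against 14.6 to 18.00% in wild type. THI80, thiamine pyrophosphokinase, was the largest fall, at -0.68 (adjusted p = 0.00152), with 2 of the 4 arrays of 112A above background, and its call was lost under the normexp background correction (adjusted p = 0.225). In vitamin B6 synthesis 2 of 9 rose and 5 fell, led by SNZ1 at -0.68 (adjusted p = 8.05e-05) and TPN1, the vitamin B6 importer of the plasma membrane, at -0.57 (adjusted p = 2.92e-05); the rises numbered 4 without 112A replicate 4, without wild type replicate 1 or with the replicate block.

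Of 17 hexose transporter genes 8 rose and 1 fell, with a median of 0.45. The rises numbered 5 in the authors' deposited values, and the median ran from 0.15 to 0.54 over the settings. HXT13, HXT15, HXT16 and HXT17 are near-identical and their probes may share signal, so their counts are not independent. HXT13 was at 4.02, 3.64, 4.15 and 2.94% on the 112A arrays, against 1.45, 2.22, 1.51 and 1.80% on the wild type arrays. HXT13 changed by 1.09 ± 0.15 (SE), 2.13-fold, with an adjusted p of 0.000162. HXT15 rose by 1.01, HXT16 by 0.88 and HXT17 by 1.00, at relative signals of 17.8 to 19.5% in 112A, against 7.90 to 10.9% in wild type for HXT17. HXT5, a transporter that is expressed when growth slows, was the member that fell, at -0.67 (adjusted p = 0.00194), and without wild type replicate 1 the number that fell was 4. In glycolysis and fermentation 6 of 25 (24%) rose, near the 22.8% of all genes, and 3 (12%) fell, where 25.5% of all genes fell. The falls numbered 5 without 112A replicate 2. The rises numbered 10 without 112A replicate 3, 11 under quantile scaling and 15 under cyclic loess scaling. ADH1, the main alcohol dehydrogenase of fermentation, was at 11354, 11421, 10561 and 11760.0% on the 112A arrays, against 4225, 6964, 6744 and 7053% on the wild type arrays, with wild type replicate 1 well below the other 3. The change was 0.88 ± 0.14 (SE), 1.84-fold, with an adjusted p of 0.000465, and it was 0.70 (adjusted p = 4.65e-05) without that array. ENO2, an enolase, rose by 0.47 (adjusted p = 0.0174) and by 0.37 (adjusted p = 0.0467) without wild type replicate 1, and PFK2, a phosphofructokinase subunit, by 0.43 (adjusted p = 0.00923) and 0.34 (adjusted p = 0.0224). The members that fell were ADH5 at -0.43 (adjusted p = 0.00198), the mitochondrial ADH3 at -0.35 (adjusted p = 0.000893) and the glucokinase GLK1 at -0.22 (adjusted p = 0.0127). RKI1 of the pentose phosphate pathway, which converts ribose-5-phosphate, was the largest fall of that list at -0.93 (adjusted p = 4.39e-05); 5 of 14 members rose and 5 fell. ALD5, a mitochondrial aldehyde dehydrogenase, was at 9.91, 8.84, 7.72 and 8.21% on the 112A arrays, against 28.5, 22.8, 23.8 and 22.5% on the wild type arrays. ALD5 changed by -1.49 ± 0.09 (SE), 2.81-fold, with an adjusted p of 6.37e-07. The cytosolic ALD6 fell by 0.60 (adjusted p = 0.000418).

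Genes in the nucleus for the mitochondrial ribosome, the respiratory chain and protein import were mostly called lower, in small steps, while most listed transcripts of the mitochondrial genome rose. Of 70 mitochondrial ribosomal protein genes 50 fell and 1 rose (median -0.23), and of 39 respiratory chain genes 23 fell and none rose (median -0.29). Of 21 genes listed for assembly of cytochrome oxidase, CBP4 of the bc1 complex among them, 15 fell and 2 rose. Of 31 genes listed for import, TIM11 of the ATP synthase among them, 16 fell and none rose. Over all tested genes 25.5% fell and 22.8% rose. MNP1, a protein of the large mitochondrial ribosomal subunit, was at 32.2, 26.3, 27.05 and 27.8% on the 112A arrays, against 50.4, 40.4, 44.99 and 43.5% on the wild type arrays. MNP1 changed by -0.66 ± 0.08 (SE), 1.58-fold, with an adjusted p of 5.25e-05. RSM22 of the small subunit fell by 0.64 and MRPL20 by 0.61. COX5A, a subunit of cytochrome oxidase, was at 1064, 680.5, 1094 and 899% on the 112A arrays, against 1386, 1308, 1302 and 1251% on the wild type arrays. The log2 change was -0.51 ± 0.13 (SE), 1.43-fold, with an adjusted p of 0.00663 and replicate 2 of 112A lowest. COX7, another subunit, changed by -0.50 (adjusted p = 0.000438) and SDH2, the iron-sulfur subunit of succinate dehydrogenase, by -0.48 (adjusted p = 0.00105). CYC1, cytochrome c, stood at 226, 109, 194 and 151% on the 112A arrays, against 294, 228, 228 and 222% on the wild type arrays, where the groups overlap; its change of -0.56 (adjusted p = 0.0305) lost its call in 4 of the 18 alternatives, among them without 112A replicate 2, without 112A replicate 4 and without wild type replicate 1. Import was led by TIM12 (-0.75, adjusted p = 2.18e-06), TIM9 (-0.58, adjusted p = 0.000443) and TOM6 (-0.54, adjusted p = 7.84e-05), small proteins of the translocases of both mitochondrial membranes. CBP4, needed to assemble the bc1 complex, fell by 0.59 (adjusted p = 1.12e-05).

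Of the 13 tested members of the mitochondrial genome list 10 rose and 1 fell, with a median of 0.55. ATP8, a subunit of ATP synthase, was at 294, 237, 278 and 269% on the 112A arrays, against 118, 171, 154 and 173% on the wild type arrays, all above wild type. ATP8 changed by 0.82 ± 0.11 (SE), 1.77-fold, with an adjusted p of 0.000132. AI3, an intron-encoded protein, was at 5.08, 4.53, 4.77 and 4.31% on the 112A arrays, against 1.46, 1.92, 1.33 and 1.63% on the wild type arrays, with 3 of 4 wild type arrays above background and a change of 1.57 ± 0.10 (SE), 2.97-fold, with an adjusted p of 7.6e-07. BI2 and BI3, also encoded in introns, rose by 1.01 and 0.64. COB, apocytochrome b, was the one that fell, at -0.17 (adjusted p = 0.0394), and its call was lost in 8 of the 18 alternatives. The labelling was from polyadenylated RNA and yeast mitochondrial mRNAs carry no long poly(A) tail; the part of that step in these values was not tested. COI1, a small mitochondrial protein encoded in the nucleus, was at 3.97 to 6.66% in 112A, against 1.87 to 2.60% in wild type, with 3 of 4 wild type arrays above background, and rose by 1.12 (adjusted p = 0.000177).

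Enzymes of gluconeogenesis and the glyoxylate cycle, which yeast uses when glucose is gone, fell in 14 of 18 cases (77.8%), and none rose. The median was -0.46, and 25.5% of all genes fell. MLS1, malate synthase, was at 148, 76.4, 136 and 142% on the 112A arrays, against 328, 286, 269 and 248% on the wild type arrays, with replicate 2 of 112A lowest and no overlap. MLS1 changed by -1.21 ± 0.18 (SE), 2.32-fold, with an adjusted p of 0.0003. FBP1, fructose-1,6-bisphosphatase, was at 257, 194, 300.0 and 202% on the 112A arrays, against 614, 445, 493 and 458% on the wild type arrays. FBP1 changed by -1.09 ± 0.15 (SE), 2.13-fold, with an adjusted p of 0.000152. SFC1, a mitochondrial succinate and fumarate carrier, changed by -0.82 (adjusted p = 0.0023) and by -0.70 (adjusted p = 0.0061) without wild type replicate 1, and PCK1, which starts gluconeogenesis, by -0.75 (adjusted p = 0.00453). In the citric acid cycle 8 of 13 fell and 2 rose, led by FUM1, fumarase, at -0.54 (adjusted p = 0.00746) and ACO1, aconitase, at -0.53 (adjusted p = 0.00105), and the falls numbered 5 under quantile scaling.

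Stress genes and chaperones were mostly lower. Of 29 heat shock genes 20 (69.0%) fell and 2 rose, with a median of -0.38. Of 22 general stress genes 12 (54.5%) fell and 2 rose, where 25.5% of all genes fell and 22.8% rose. BTN2, which gathers misfolded proteins, was at 22.6, 25.5, 22.5 and 25.5% on the 112A arrays, against 62.01, 47.9, 55.02 and 58.6% on the wild type arrays. BTN2 changed by -1.21 ± 0.10 (SE), 2.32-fold, with an adjusted p of 4.67e-06. YDJ1, a cytosolic partner of Hsp70, was at 104, 96.8, 97.7 and 96.97% on the 112A arrays, against 250.4, 174, 193 and 186% on the wild type arrays. YDJ1 changed by -1.01 ± 0.09 (SE), 2.01-fold, with an adjusted p of 9.85e-06. SSA3, an Hsp70 that rises under stress, changed by -0.96 (adjusted p = 0.000373) and MDJ1, a mitochondrial partner of Hsp70, by -0.66 (adjusted p = 1.38e-06). The members that rose were the ribosome-bound Hsp70 genes SSB1 at 0.54 (adjusted p = 0.0307) and SSB2 at 0.42 (adjusted p = 0.0475), which are near-identical; the calls of SSB1 and SSB2 were lost in 5 and 11 of the 18 alternatives. HSP12, a membrane-protecting stress protein, was at 979, 811, 1249 and 892% on the 112A arrays, against 1997, 1903, 1848 and 1839% on the wild type arrays. HSP12 changed by -0.97 ± 0.11 (SE), 1.95-fold, with an adjusted p of 5.07e-05. GRE1, DDR2 and SIP18 fell by 0.84, 0.83 and 0.80. In the endoplasmic reticulum, where secreted antibodies fold, 4 of 25 folding genes (16%) fell and 3 (12%) rose, and the median was 0.04. Both shares were below those over all genes. The rises numbered 6 under normexp or cyclic loess, and 5 under quantile scaling or without wild type replicate 1, and the falls 2 without 112A replicate 2 or without wild type replicate 3, or in a fit of the 8 arrays alone. ERO1, the oxidase that drives disulfide formation, fell by 0.87 (adjusted p = 0.000476), and KAR2, the Hsp70 of that compartment, was at 116 to 136% in 112A, against 171 to 174% in wild type and fell by 0.46 (adjusted p = 5.45e-05). Of 36 proteasome genes 12 fell and 2 rose, and 7 fell under quantile scaling. Among 36 redox genes 7 rose and 7 fell (19.4% each), shares below those over all genes. CTT1, cytosolic catalase, stood at -0.76 (adjusted p = 9.28e-05) and TRX3, mitochondrial thioredoxin, at -0.70 (adjusted p = 4.11e-05). The redox rises numbered 4 without 112A replicate 1 or without wild type replicate 4.

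AQY1, an aquaporin, and SPS100, a spore wall protein, were among the largest falls. AQY1 was at 81.5, 66.99, 99.2 and 90.3% on the 112A arrays, against 232, 223, 205 and 189% on the wild type arrays. AQY1 changed by -1.34 ± 0.11 (SE), 2.53-fold, with an adjusted p of 3.94e-06. SPS100 was at 55.1 to 81.6% in 112A, against 132 to 161% in wild type and changed by -1.11 (adjusted p = 8.47e-05).

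**Figure D3:**
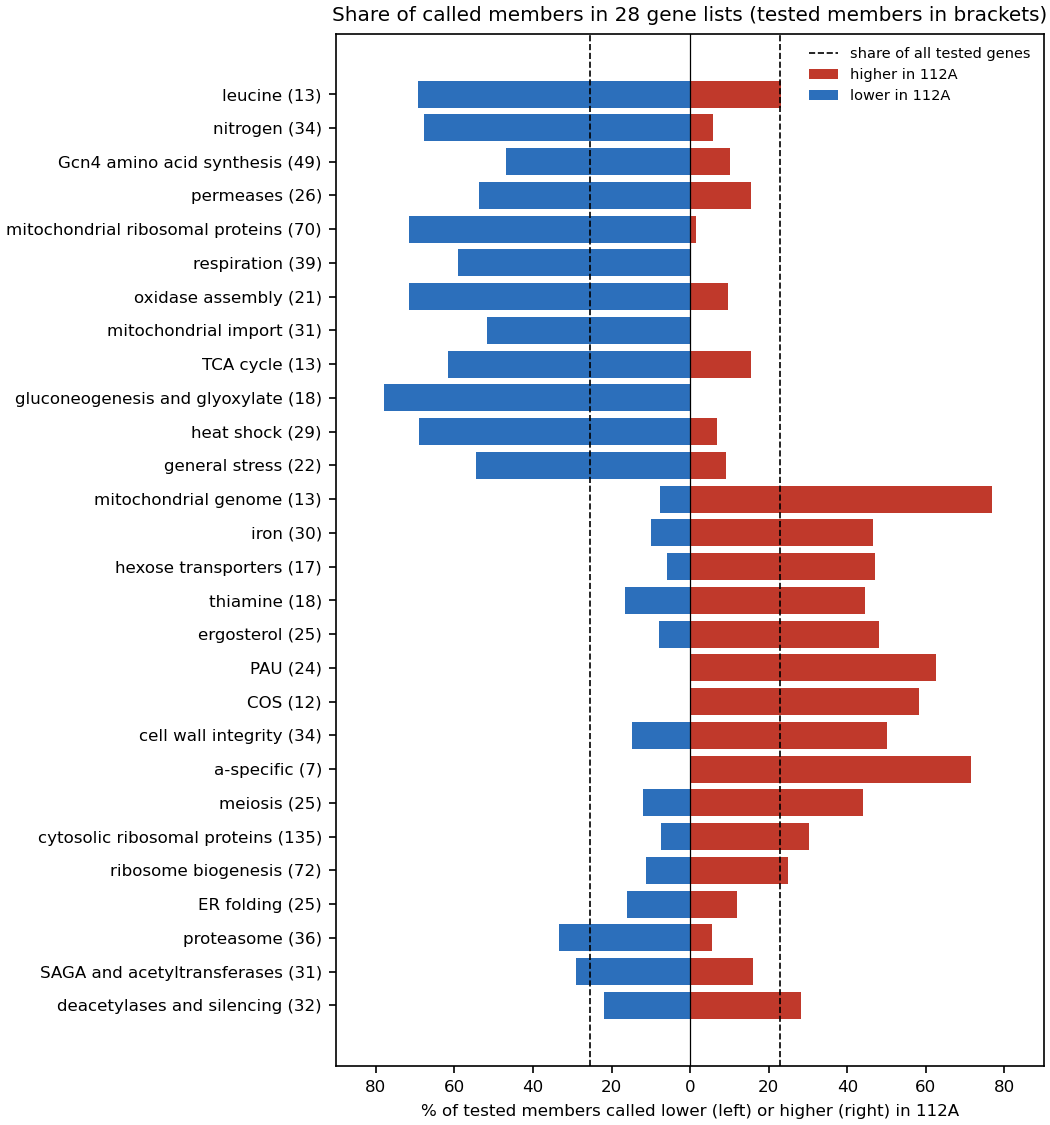
Bars give the share of the tested members of 28 gene lists that were called lower (blue, left) or higher (red, right) in 112A, in percent, and the dashed lines give 25.5% and 22.8%, the shares over all 5827 tested genes. Lists of mitochondrial, nitrogen, chaperone and gluconeogenic genes reach past the left line, and the mitochondrial genome, iron, ergosterol and PAU lists reach past the right one.

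For the cytosolic ribosome the counts of higher genes turned on single arrays. Of 135 ribosomal protein genes 41 (30.4%) rose and 10 fell, with a median of 0.29, where 22.8% of all genes rose. The rises numbered 80 without 112A replicate 3 and 27 without wild type replicate 1, a smaller share of the list than 1420 is of all 5827 genes in that setting. RPL40B, a ubiquitin-fused protein of the large subunit, was at 88.02, 109, 75.97 and 81.5% on the 112A arrays, against 40.01, 41.7, 45.8 and 49.3% on the wild type arrays. RPL40B changed by 0.99 ± 0.11 (SE), 1.99-fold, with an adjusted p of 3.66e-05. RPS0B rose by 0.88 (adjusted p = 0.000144) and RPL21A by 0.69 (adjusted p = 0.00769), while the paralogs RPL14A and RPL14B, whose probes may share signal, fell by 0.65 and 0.65. Of 72 ribosome biogenesis genes 18 rose, near the share over all genes, and 8 fell; 31 rose without wild type replicate 1 and 4 fell without 112A replicate 4. NOP16, which acts in assembly of the large subunit, was at 95.5, 110.0, 98.3 and 89.4% on the 112A arrays, against 55.8, 52.1, 52.1 and 56.5% on the wild type arrays. NOP16 changed by 0.86 ± 0.06 (SE), 1.81-fold, with an adjusted p of 3.03e-06. RRP5, an rRNA processing factor, rose by 0.70 (adjusted p = 0.000664). NSR1, a nucleolar protein, was at 48.2, 56.2, 73.3 and 37.6% on the 112A arrays, against 173, 66.2, 98.2 and 77.6% on the wild type arrays, where the groups overlap; its change of -0.89 (adjusted p = 0.0202) was not called without 112A replicate 4 (adjusted p = 0.0597). Of 31 RNA polymerase genes 12 fell and 7 rose, among them RPA34 (-0.76, adjusted p = 0.00053), RPA14 (-0.65, adjusted p = 5.01e-05) and RPA12 (-0.68, adjusted p = 0.00728) of polymerase I and RPB9 (-0.57, adjusted p = 0.00149) of polymerase II; RPA12 was above background on 2 of 4 arrays of 112A and was not called under normexp (adjusted p = 0.49). Of 19 tRNA synthetases 9 rose and 4 fell, with KRS1, for lysine, at -0.70 (adjusted p = 0.000202).

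At the cell surface, genes of the PAU family, the sterol pathway and wall integrity were called higher more often than lower, while the list of TIR and DAN wall proteins held both directions, with 5 of 10 called higher and 3 lower. TIR1, a mannoprotein of the wall that is induced by cold and low oxygen, was at 294, 352, 358 and 296% on the 112A arrays, against 108, 135, 131 and 126% on the wild type arrays, all above wild type. TIR1 changed by 1.38 ± 0.12 (SE), 2.60-fold, with an adjusted p of 8.2e-06. TIR2 was at 320.3, 330.4, 279.7 and 323% on the 112A arrays, against 138, 162, 165 and 175% on the wild type arrays. TIR2 changed by 0.97 ± 0.08 (SE), 1.96-fold, with an adjusted p of 5.49e-06, and TIP1 rose by 0.56 (adjusted p = 0.00784). The members that fell were CWP1 at -0.34 (adjusted p = 0.00453), TIR4 at -0.23 (adjusted p = 0.00251) and DAN4 at -0.21 (adjusted p = 0.0102). Of the 24 tested members of the related PAU family 15 rose and none fell, by 0.13 to 0.51, and 9 rose without 112A replicate 1 or without wild type replicate 4. The PAU genes are near-identical, so their counts are not independent; PAU11, the largest, was at 48.1 to 55.4% in 112A, against 34.6 to 38.6% in wild type. In ergosterol synthesis 12 of 25 rose and 2 fell, with a median of 0.15. ERG6, a sterol methyltransferase, was at 106 to 118% in 112A, against 58.02 to 73.2% in wild type and changed by 0.81 ± 0.08 (SE), 1.75-fold, with an adjusted p of 1.48e-05. ERG2, a sterol isomerase, was at 299 to 316% in 112A, against 166 to 196% in wild type and changed by 0.80 (adjusted p = 6.54e-06). UPC2, the activator of sterol genes, rose by 0.68 (adjusted p = 0.000194) and ERG25, a sterol demethylase, by 0.59 (adjusted p = 0.000368). Of 34 wall integrity genes 17 rose and 5 fell, among them WSC4, a surface sensor, at 0.59 (adjusted p = 1.48e-05) and CRH1, which links chitin to glucan, at 0.57 (adjusted p = 9.36e-05); the falls numbered 2 without wild type replicate 3 or 4 and 3 without 112A replicate 2, 3 or 4. In the subtelomeric COS family 7 of 12 rose and none fell. COS12 had the largest fitted change of the family from a probe near background, and the next of the called members was COS7 at 0.40 (adjusted p = 0.00383). In the DUP240 family 5 of 10 rose and none fell, led by PRM9 at 0.79 (adjusted p = 0.00403). PRM9 was above background on 3 arrays of 112A and 2 of wild type. Probes within the COS and DUP240 families may share signal, so the counts of both may not be independent. RPI1, a regulator that affects the wall and Ras signalling, was at 50.2, 54.99, 49.5 and 42.1% on the 112A arrays, against 24.1, 21.1, 23.9 and 26.9% on the wild type arrays. RPI1 changed by 1.04 ± 0.09 (SE), 2.05-fold, with an adjusted p of 8.09e-06.

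**Figure D4:**
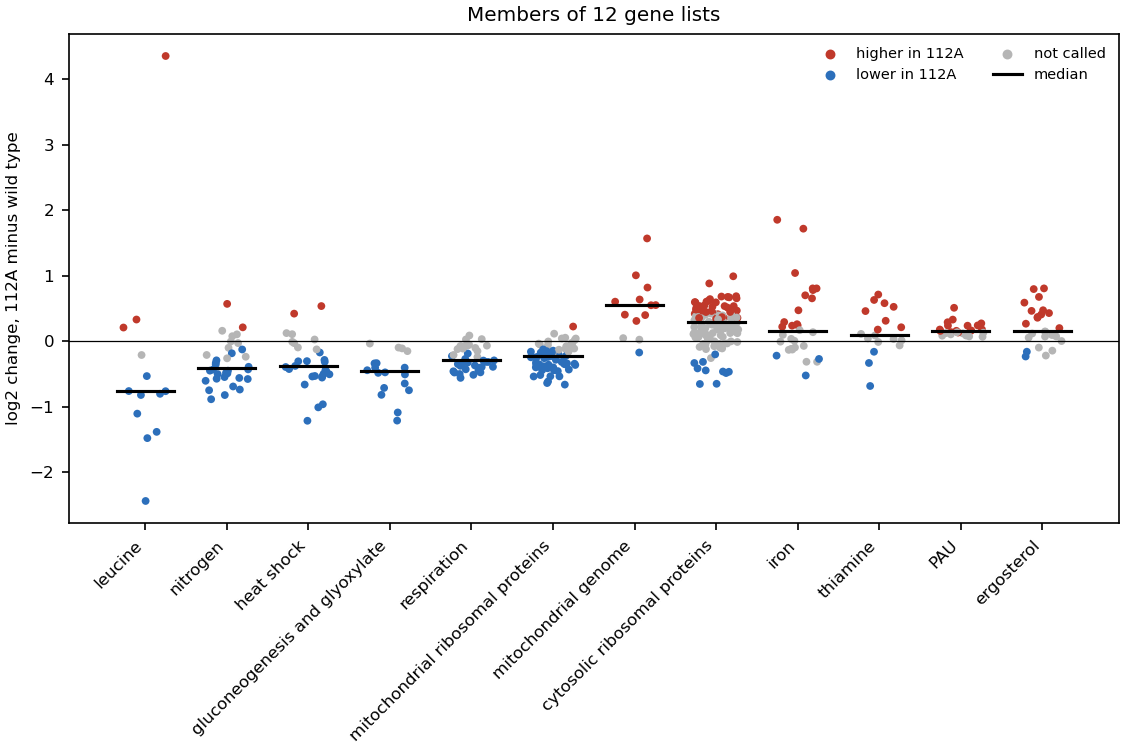
Each point is a tested member of one of 12 gene lists, with its log2 change of 112A minus wild type on the y axis; red was called higher, blue lower and grey not called, and black bars are medians. The medians run between -0.76 for leucine synthesis and 0.55 for the mitochondrial genome, and LEU2, at 4.36, lies apart from its list.

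Among chromatin genes the changes were small. Of 11 histone genes 5 fell and none rose, led by HTB2 (-0.68, adjusted p = 0.0171), HHF1 (-0.60, adjusted p = 0.0319) and HHT1 (-0.44, adjusted p = 0.00413), of histones H2B, H4 and H3, and by HTZ1, the H2A variant, at -0.42 (adjusted p = 7.84e-05). HHF1 was at 537, 675, 663 and 369% on the 112A arrays, against 1138, 609, 740.1 and 914% on the wild type arrays, where the groups overlap, and its call was lost in 8 of the 18 alternatives. Of 31 SAGA and acetyltransferase genes 5 rose and 9 fell, and of 32 deacetylase and silencing genes 9 rose and 7 fell, near the shares over all genes. ELP3, an acetyltransferase of the Elongator complex, was at 27.2, 30.5, 28.8 and 24.4% on the 112A arrays, against 18.7, 14.8, 15.96 and 16.8% on the wild type arrays. ELP3 changed by 0.74 ± 0.09 (SE), 1.67-fold, with an adjusted p of 9.53e-05. ADA2, an adaptor in SAGA, changed by -0.48 (adjusted p = 0.000105), TRA1, the activator-binding subunit of SAGA, by 0.42 (adjusted p = 0.00297), and CHD1, a remodeller, by 0.43 (adjusted p = 0.00104). HDA2, a subunit of the HDA1 deacetylase complex, rose by 0.52 (adjusted p = 3.94e-06), HST2, a sirtuin, by 0.45 (adjusted p = 0.0032), and RXT3 of the RPD3 large complex fell by 0.56 (adjusted p = 8.2e-06). UME6, which recruits RPD3, was at 1.42 to 2.21% in 112A, against 2.29 to 2.78% in wild type and stood at -0.49 (adjusted p = 0.00442), and at 0.000361 (adjusted p = 0.997) under the normexp correction.

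Genes of meiosis, DNA replication and mitosis are set against 22.8% of all genes called higher and 25.5% called lower. Of 25 meiotic genes 11 (44.00%) rose and 3 fell, with 18 rises under normexp and 7 in the authors' deposited values. Over all genes the rises went from 1331 to 1660 under normexp and to 1470 in the deposited values. The share of 22.8% therefore does not apply to counts from those settings. The falls numbered 0 without 112A replicate 2, without wild type replicate 3 or in the authors' deposited values, and 1 without 112A replicate 1 or 3 or wild type replicate 2 or 4. IME1, the master regulator of entry into meiosis, was at 54.3, 59.1, 58.96 and 55.2% on the 112A arrays, against 29.1, 32.2, 29.7 and 31.9% on the wild type arrays. IME1 changed by 0.89 ± 0.05 (SE), 1.85-fold, with an adjusted p of 6.2e-07. SSP1, of spore wall formation, was at 5.83 to 8.03% in 112A, against 2.72 to 3.78% in wild type and rose by 1.13 (adjusted p = 2.46e-05), and SPR3, a sporulation septin, by 0.99 (adjusted p = 0.00111). Of 44 DNA replication genes 14 (31.8%) rose and 4 fell, and 8 had all arrays of 112A above all of wild type, near the 17.8% of all genes. Of 42 mitosis genes 17 (40.5%) rose and 5 fell. Without 112A replicate 3 or 4 the falls numbered 2 in DNA replication and 3 in mitosis. POL2, a DNA polymerase subunit, was at 26.02, 27.4, 18.04 and 24.6% on the 112A arrays, against 13.97, 12.2, 11.5 and 12.4% on the wild type arrays. POL2 changed by 0.93 ± 0.11 (SE), 1.90-fold, with an adjusted p of 7.95e-05. SMC1, a cohesin subunit, rose by 0.80 (adjusted p = 7.89e-06), MYO1, a myosin of the division ring, by 0.75 (adjusted p = 1.48e-05), and ASE1, of the spindle midzone, by 0.69 (adjusted p = 0.000862). The rises in DNA replication numbered 24 under normexp, where 1660 of all genes rose.

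Counts of the remaining lists are given beside the 22.8% of all genes called higher and 25.5% called lower. Of 23 purine genes 3 rose and 9 (39.1%) fell, among them ADE4, which starts purine synthesis, at -0.58 (adjusted p = 0.00312), the purine permease FCY2 at -0.83 (adjusted p = 0.00111) and IMD2, an IMP dehydrogenase, at -0.87 (adjusted p = 0.000142). Of 23 drug resistance genes 6 rose and 10 (43.5%) fell, with 3 rises without 112A replicate 1 or without 112A replicate 4; AQR1, an exporter of acids and drugs, stood at -0.90 (adjusted p = 0.00593) and PDR15, an ABC transporter, at -0.68 (adjusted p = 0.00012). Of 16 NAD genes 4 rose and 3 fell, with NPT1, which salvages nicotinic acid, at 0.73 (adjusted p = 0.000124). Of 24 phosphate genes 2 rose and 6 fell. The phosphate rises numbered 5 under normexp and 0 without 112A replicate 2 or without wild type replicate 2. PHO4, the activator of the phosphate response, fell by 0.36 (adjusted p = 0.0177) and was not called under normexp (adjusted p = 0.0782). PHM8, a phosphatase, stood at -0.32 (adjusted p = 0.00108). Counts were 4 higher and 3 lower of 24 genes of haploid cells and the pheromone response, and 4 and 1 of 16 for fatty acid oxidation. They were 2 and 2 of 14 genes of galactose and maltose use, and 4 and 2 of 17 for trehalose and glycogen. For copper and zinc they were 3 and 1 of 17, for phospholipids 2 and 4 of 20, and for flocculins 2 and 3 of 9. A list of low-oxygen genes together with their aerobic partners had 1 rise and 6 falls of 19. The rise was ANB1, and the falls included the aerobic CYC1 and COX5A. Its rises ran from 0 to 3 over the settings. Trehalose and glycogen had 8 rises under quantile scaling and 9 under cyclic loess scaling, and the galactose and maltose list had 4 falls without wild type replicate 1.

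Some of the largest rises came from probes that were at background in wild type. YOL085C, which has a suffix to its name in the array files, was at 9.51, 9.93, 9.68 and 8.07% on the 112A arrays, against 0.193, 0.338, 0.499 and 0.403% on the wild type arrays. It was above background on all 4 arrays of 112A and on none of wild type, so the difference is a bound of at least 9.35-fold. Like YOR050C.1 and YGL262W below, it passed the filter through intrabody arrays alone. The limma p-value does not test such a bound, so none is given for the difference from wild type. It lies next to ADH1 on chromosome XV, and PHM7 on its other side was called lower (-0.27, adjusted p = 0.0216) and lost that call in 2 of the 18 alternatives. YOR050C.1, which has no match in assembly R64, was at 6.53, 7.13, 5.53 and 6.13% on the 112A arrays, against 0.538, 0.64, 0.661 and 0.54% on the wild type arrays, a bound of at least 6.25-fold. YGL262W was above background on 3 of 4 arrays of 112A and none of wild type, a bound of at least 3.48-fold. Its neighbour COS12 was above background on 2 arrays of 112A and 1 of wild type, at 1.46 to 2.75% in 112A, against 0.32 to 0.515% in wild type, and the next gene, PAU11, was higher as given above. TC19329, an unmatched name, was bright in both groups, at 50.8, 47.6, 42.7 and 49.2% on the 112A arrays, against 17.02, 19.9, 19.1 and 19.04% on the wild type arrays. TC19329 changed by 1.34 ± 0.07 (SE), 2.54-fold, with an adjusted p of 1.45e-07. Among falls, YGL024W.1, also unmatched, was above background on 1 of 4 arrays of 112A and on all 4 of wild type, and stood at -1.46 (adjusted p = 9.95e-05), and at -0.38 under normexp.

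By chromosome, the median change lay between -0.05 on chromosome II and 0.09 on chromosome VI, and at 0.55 for the 17 tested features assigned to the mitochondrial genome, listed or not. Chromosome VI had 37.0% of its 119 tested genes higher, and chromosome II 30.4% of its 385 lower.

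The second intrabody strain gives values beside these. Both comparisons use the same 4 wild type arrays, so their likeness is not independent. In 58F 61.9% of tested genes were called against wild type. LEU2 changed by 4.36 in 112A and 4.63 in 58F, LEU1 by -2.44 in 112A and -2.49 in 58F, PDC5 by 2.49 in 112A and 2.50 in 58F, TIS11 by 1.04 in 112A and 1.05 in 58F, and BAP2 by -1.08 in 112A and -1.02 in 58F. Compared directly, 14.1% of genes were called higher and 17.9% lower in 58F than in 112A. YOL085C, FIT3, FRE5 and the 5 falls named next were picked because this difference was called and opposed their change in 112A. Their adjusted p for it therefore restates the pick, and the 112A arrays are shared with the comparison against wild type. YOL085C, above background on all 4 arrays of both intrabody strains, stood lower in 58F, with 58F minus 112A at -0.995 (adjusted p = 0.00755), and for FIT3 and FRE5 that difference was -0.50 (adjusted p = 0.025) and -0.33 (adjusted p = 0.0453). Among falls, AGP1, GLN1, ICY1, HMS1 and YER039C-A were less low in 58F. The difference, 58F minus 112A, was 0.34 (adjusted p = 0.0175) for AGP1, 0.50 (adjusted p = 0.000958) for GLN1 and 0.50 (adjusted p = 0.00207) for ICY1. It was 0.38 (adjusted p = 0.00531) for HMS1 and 0.32 (adjusted p = 0.0155) for YER039C-A. The falls of HMS1 and YER039C-A in 112A against wild type varied over the settings, from -1.07 to -0.30 and from -0.97 to -0.42. Genes called in 112A with the smallest change in 58F included PES4 (0.52 in 112A and 0.000941 in 58F), PRS3 (0.29 in 112A and 0.00284 in 58F), PTC5 (0.22 in 112A and -0.00019 in 58F), ASK1 (-0.31 in 112A and -0.00285 in 58F) and SWP1 (-0.15 in 112A and 0.00378 in 58F); the call of PTC5 was lost without wild type replicate 3. THI11 changed by 0.71 in 112A and 0.10 in 58F, with 58F minus 112A at -0.62 (adjusted p = 0.000283). CYC1 and FBP1 were lower still in 58F, with 58F minus 112A at -1.40 (adjusted p = 0.000428) and -1.13 (adjusted p = 0.000336).

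**Figure D5:**
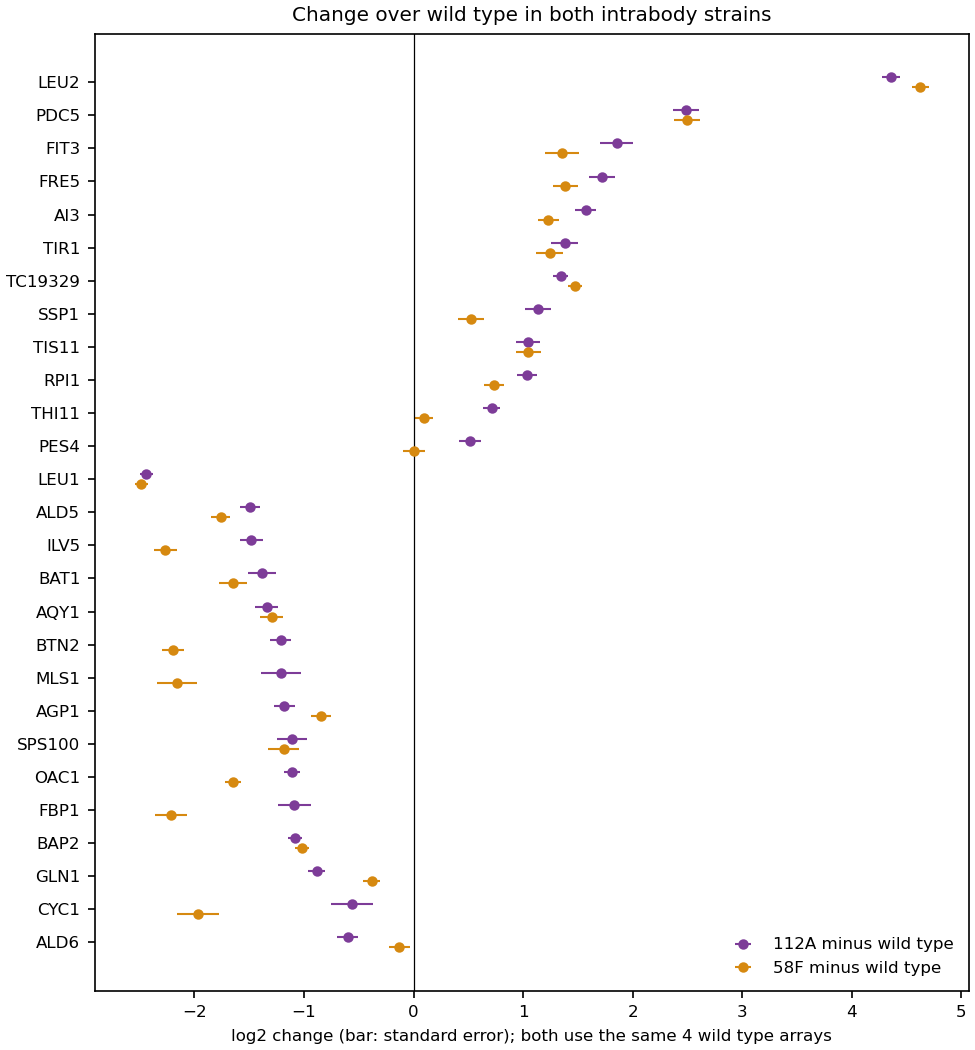
Log2 change over wild type of 27 genes in 112A (purple, upper point) and 58F (orange, lower point), with standard errors as bars; both use the same 4 wild type arrays. LEU2, LEU1 and PDC5 lie at 4.36, -2.44 and 2.49 in 112A and 4.63, -2.49 and 2.50 in 58F, while CYC1 lies at -0.56 in 112A and -1.96 in 58F.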

How the data were processed

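Each array file holds the authors' Agilent Feature Extraction output, version 10.7.3.1, per the file headers. The Cy3 intensity used here, the processed signal, is one from which the authors' software had subtracted the background and removed the spatial trend, with no scaling between arrays, per the file headers. The authors' deposited log2 values for 5297 probes follow that signal with a 75th percentile of 12.8 on each array, and served as an alternative. Outlier spots were dropped, the log2 signal was centred on each array's 75th percentile, the 2 spots of a probe were averaged, and a gene took its brightest probe. Of 6224 genes (6256 probes, 30 genes with several), 5827 had a probe above background on at least 4 of 12 arrays and were tested; 5751 matched the names of assembly R64. The files name another genome build, so no coordinates are given.

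The model was fitted over all 12 arrays with limma 3.58.1 in R 4.3.3 (empirical Bayes, Benjamini-Hochberg over all genes). Where no array of a group was above background, a fold is a bound against the lowest signal among probes above background. On simulated arrays with known changes the fit was tested before use. The normexp alternative used the median pixel signal, since the files hold no mean signal. Replicate numbers were taken as slide positions, which was not tested, and were not used to pair the groups. The correlations of gene deviations between same-numbered arrays were 0.11, -0.06, 0.03 and 0.08. The share of spots well above background did follow the number, highest on replicate 2 and lowest on replicate 3 of each group. These shares were 93.4 and 87.0% in 112A, 94.7 and 89.7% in 58F, and 93.8 and 89.7% in wild type. No column was left unmapped.

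The members and the 56 gene lists were chosen with earlier results of these data known. Named genes are the 15 largest rises and 15 largest falls with arrays that do not overlap, up to 4 called members per list, all members of the marker, leucine and mating type lists, and 5 genes per direction set beside 58F, of which the text names a part. Members named because they went against their list, and neighbours of named genes, were chosen after their values were seen. Precision is limited by the 4 arrays per group.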

Additional observations from a re-analysis of the deposited data

Results flagged for a closer look

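Dixon's test was run within each group of 4 arrays for 4 array measures and for the named genes, 384 groups in all, and marked 36 (9.38%) where 1 array lay far from the other 3; chance marks about 1 in 20 groups. No cause was tested for any of them. The array 112A replicate 1 had YDJ1 at 104% (others 96.8 to 97.7%). The array 112A replicate 2 had LEU4 at 589% (others 663 to 668%), ILV1 at 26.5% (others 22.9 to 23.4%), ILV6 at 253% (others 216 to 220.3%) and GLN1 at 376% (others 298 to 302%). It also had MLS1 at 76.4% (others 136 to 148%), HDA2 at 32.8% (others 29.8 to 30.1%), SIP18 at 7.95% (others 11.4 to 12.04%) and CBP4 at 141% (others 151 to 152%). It also had SSB1 at 122% (others 75.1 to 80.3%) and ADH5 at 65.7% (others 48.9 to 50.97%). The array 112A replicate 3 had BAT1 at 19.1% (others 25.5 to 27.01%), PAU11 at 48.1% (others 54.2 to 55.4%), CYS3 at 501% (others 596 to 612%) and ADH3 at 472% (others 522 to 532%). It also had DAN4 at 13.1% (others 13.9 to 14.1%). The array 112A replicate 4 had TIS11 at 180.5% (others 156 to 159%), RPA12 at 1.43% (others 1.90 to 1.95%) and COB at 461% (others 489 to 494%). The array wild type replicate 1 had a 75th percentile of 9362 intensity units, where the other 3 had 5592 to 6047, a median local background of 37.5 units, where the others had 29.00 to 30.00, ILV2 at 174% (others 152 to 155%) and ADH1 at 4225% (others 6744 to 7053%). It also had ENO2 at 1153% (others 1507 to 1551%), CYC1 at 294% (others 222 to 228%), SFC1 at 524% (others 372 to 385%) and RSM22 at 17.03% (others 14.1 to 14.3%). It also had SSA3 at 428% (others 322 to 333%), PRM9 at 1.06% (others 1.64 to 1.68%), PTC5 at 34.1% (others 28.6 to 29.2%) and SIP18 at 20.9% (others 17.6 to 17.9%). It also had PFK2 at 176% (others 223 to 226%). The array wild type replicate 3 had STE2 at 27.3% (others 23.1 to 23.6%) and COB at 596% (others 526 to 532%). The array wild type replicate 4 had BAR1 at 10.8% (others 8.39 to 8.51%) and GLT1 at 397% (others 376 to 378%).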

How the results depend on the processing

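The counts of genes higher and lower in 112A stayed within 1.5 times of 1331 and 1484 in all 18 alternatives, at 1112 to 1660 higher and 1235 to 1514 lower, and the share of higher calls moved by under 10 percentage points. More genes were higher than lower under normexp (1660 and 1321), in the authors' deposited values (1470 and 1235) and without 112A replicate 3 (1443 and 1412), the reverse of the order with all arrays. The 25 genes at least 2-fold higher became 16 under the normexp correction, 12 with only probes above background on all 12 arrays and 13 in the authors' deposited values; the stricter filter and the deposited table hold fewer dim probes, and for normexp the cause was not tested. Leaving out 1 array gave 23 to 34 genes at least 2-fold higher and 14 to 25 lower, the 25 without wild type replicate 4. With the replicate block, 1256 genes were higher and 1375 lower, with 25 and 16 at least 2-fold; only array 1 of 112A matched its own number best, so the numbers were not taken as pairs. Of 188 named and tested genes 181 were called; 16 of these lost the call in at least 1 alternative and 4 uncalled ones gained it, and UME6 stood at 0.000361 (adjusted p = 0.997) under normexp, on the other side of 0. Leaving out 1 array of 112A ended the call of COB, CYC1, FIT1, GLT1, HHF1, NSR1, PHM7, SSB1, SSB2, STE6 or SUL1, and 1 of wild type that of these except NSR1, and of ILV6 or PTC5. Of 2016 list counts 172 moved by over 1.5 times, mostly counts of under 6, and of 1008 list medians 27 moved by over the array SD. Strain, slide and pre-culture medium change together, the replicates may be technical, and dim probes limit the largest folds.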
